A study of Mus musculus with 29 samples.

Results

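Presomitic mesoderm of mouse embryos kept in culture with the small molecules LDN and SAG was compared with the same tissue cultured without them, gene by gene. The libraries were chosen by their titles: DIR1 to DIR4, treated with LDN and SAG, and CTRL1 to CTRL4, untreated, which make 8 of the 29 libraries of the series. All 8 came from explants of E9.0 C57BL/6 embryos with Dll1-YFP lineage labelling, and the labels describe them as sorted Dll1-lineage cells of the presomitic mesoderm. The other 21 libraries, from uncultured sorted cells and from trunk tissue, are used here only for a few levels set beside the cultured ones. The labels give no dose, vehicle or time in culture, do not say which allele of Dll1 drives the mark, and do not say whether the replicates are separate cultures or pools of embryos. P-values therefore measure the spread between these libraries, which may be technical. LDN and SAG were only given together, so their parts in a difference cannot be told apart, and in bulk RNA neither can fewer cells of a type and less RNA per cell.

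Presomitic mesoderm is the unsegmented tissue on both sides of the neural tube that buds off somites, and the ventral part of each somite becomes the sclerotome, the source of vertebrae and ribs. Bone morphogenetic proteins (BMP), secreted chiefly by lateral plate and surface ectoderm, bind receptor kinases that phosphorylate Smad1, Smad5 and Smad9, and the Smads then turn on target genes such as the Id and Msx families. Sonic hedgehog, secreted by notochord and floor plate, relieves the block that Ptch1 places on Smoothened, and Gli factors then turn on genes that include Ptch1 and Gli1 themselves. The name LDN stands for inhibitors of the BMP type I receptors and SAG for an agonist of Smoothened. The labels call the pair sclerotome-inducing, so the comparison asks which genes differ when BMP signals are blocked and Hedgehog signals are raised together.

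Reads assigned to genes summed to between 22897486 and 42002422 in the DIR libraries and between 22441578 and 37275895 in the CTRL libraries. Of 23337 genes, 14190 had enough reads to be tested. A split that cuts across both groups stood out first. In DIR1, DIR2 and CTRL1 the share of alignments that were not unique was 25.4, 22.3 and 22.7%, and in the other 5 libraries it was 15.9 to 19.5%. These 3 libraries were also apart on the first principal component, which held 55.0% of the variance, while the treatment followed the second, with 22.7%. The same split ran along the GC content of transcripts: for the genes richest in GC (1 of 5 equal bins, at 55.6 to 72.8%), the median log2 difference was −0.65 for DIR1 and DIR2 minus DIR3 and DIR4, and −0.71 for CTRL1 minus CTRL2 to CTRL4. Fold changes, DIR over CTRL, ran along GC as well, with a median of −0.28 in that bin and 0.15 in the bin poorest in GC. Results below are therefore given from the fit of treatment alone and, where a list gains or loses a call, also from a second fit that adds the share of non-unique alignments as a term, called the share-adjusted fit. Among the 5 libraries of low share, it was 19.5 and 17.6% in DIR3 and DIR4 and 16.9, 17.0 and 15.9% in CTRL2 to CTRL4. The share thus leaned higher in DIR there, and the share-adjusted fit cannot fully separate it from treatment. What gave rise to the split was not tested.

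**Figure D1:**
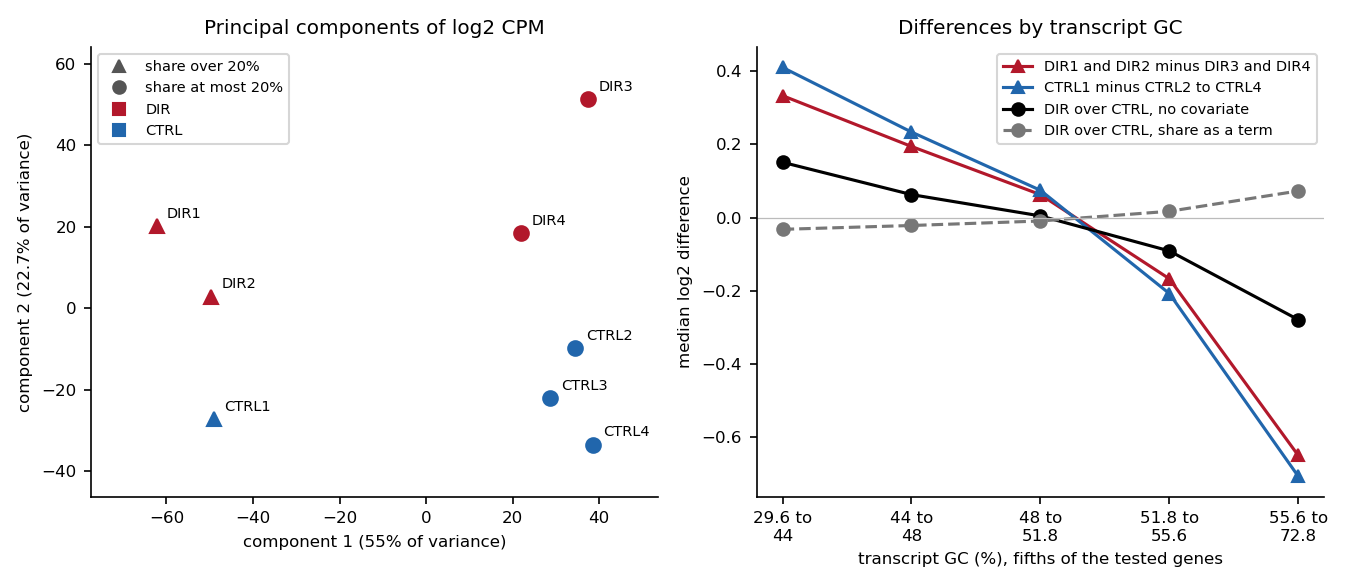
Left, the 8 libraries on the first 2 principal components of log2 CPM, with triangles for libraries whose share of non-unique alignments was over 20% (DIR1, DIR2 and CTRL1) and circles for the others. Right, the median log2 difference in 5 equal bins of the tested genes by transcript GC; both within-group differences fall with GC, to −0.65 in DIR and −0.71 in CTRL, and the share-adjusted fold change does not fall with GC.

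With treatment alone in the model, 43 genes were higher in DIR (0.303% of the genes tested) and 63 were lower (0.444%) at an adjusted p under 0.05 in edgeR's quasi-likelihood test. The share-adjusted fit called 97 higher (0.684%) and 119 lower (0.839%), and 41 and 61 of these were among the genes called without it. Of the 106 genes called with treatment alone, 105 are described or counted here. All 105 differed in the same direction in the libraries of high share (DIR1 and DIR2 minus CTRL1) and in those of low share (DIR3 and DIR4 minus CTRL2 to CTRL4), which together make up the data that called them. The counts rested on single libraries. Without DIR1 33 were higher and 34 lower, without DIR2 24 and 38, without DIR3 47 and 50, and without DIR4 20 and 30. Without CTRL1 33 were higher and 61 lower, without CTRL2 24 and 29, without CTRL3 21 and 27, and without CTRL4 16 and 24. With only the 5 libraries of low share 105 were higher and 149 lower. In all, 14 higher and 24 lower genes were called in all 8 fits that each left out 1 library. Groups did not overlap for 612 genes higher in DIR (4.31%) and 660 lower in DIR (4.65%), 8.96% of those tested in all. The shares of all genes called in each fit are the scale for every count of called list members below. Levels are given as CPM, reads per gene scaled to the size of the library.

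**Figure D2:**
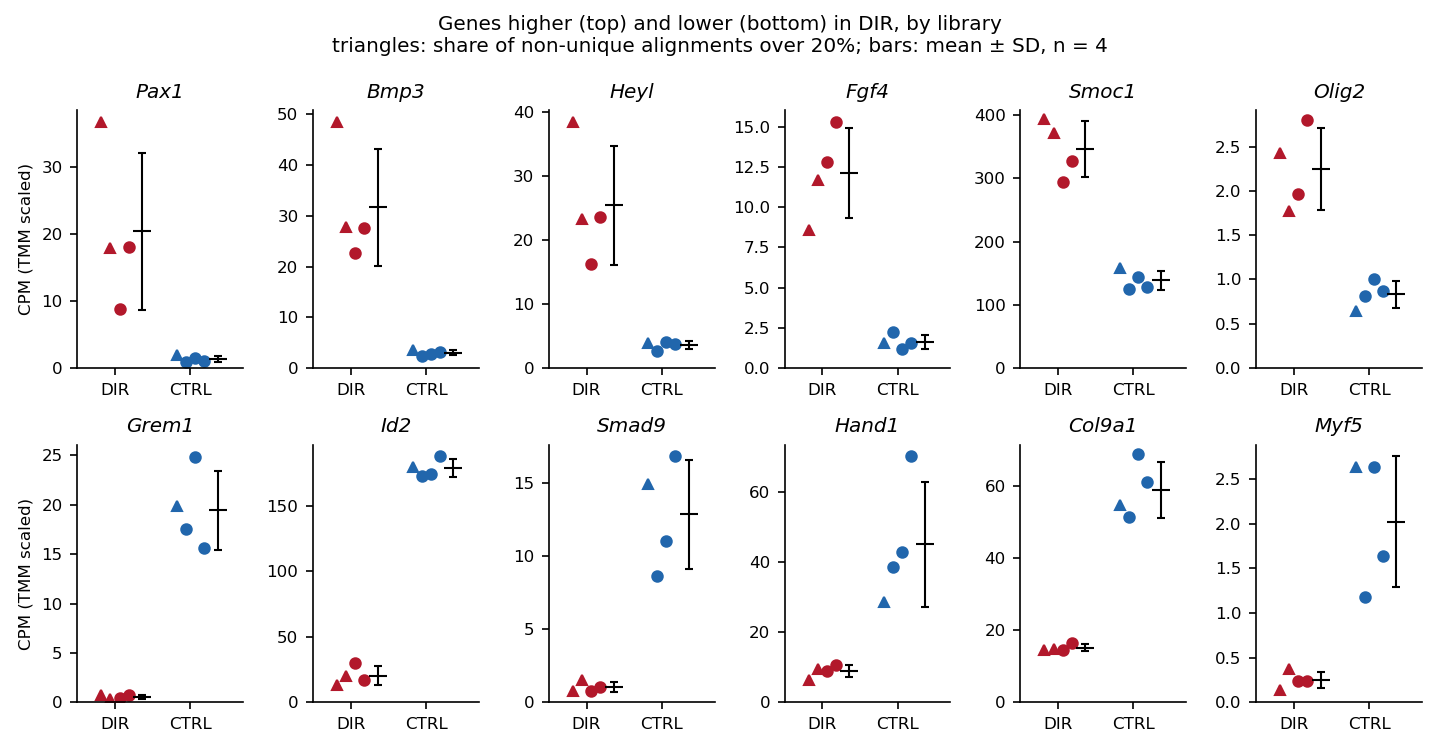
Level in CPM (TMM scaled) of 12 genes in each library, DIR left and CTRL right, with triangles for libraries with over 20% non-unique alignments and bars for the mean ± SD (n = 4). The top row holds genes higher in DIR and the bottom row genes lower in DIR, and in none of the 12 do the groups overlap.

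The 4 genes below carry much of what follows. The 300 bases around their start sites are shown because LDN and SAG act on pathways that end in Smad and Gli factors. Whether those factors bind here was not tested. Sequences are from RefSeq on GRCm38.p6 and run 5′ to 3′ on the gene's own strand. Capitals mark a match to CCACCCA, the core letters that Gli factors read, in Pax1, and to GGCGCC, a GC-rich motif read by BMP Smads, in the others, searched on both strands. Windows are chr2:147364744-147365043 on the plus strand for Pax1, chr2:113758599-113758898 on the minus strand for Grem1, chr12:25096043-25096342 on the minus strand for Id2 and chr3:54755332-54755631 on the plus strand for Smad9.
Pax1: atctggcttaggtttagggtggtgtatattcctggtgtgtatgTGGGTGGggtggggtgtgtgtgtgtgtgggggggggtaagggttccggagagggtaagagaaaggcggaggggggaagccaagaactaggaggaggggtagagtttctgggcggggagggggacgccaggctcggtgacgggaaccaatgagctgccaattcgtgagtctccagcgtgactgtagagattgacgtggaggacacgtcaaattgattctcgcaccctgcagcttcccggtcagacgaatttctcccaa
Grem1: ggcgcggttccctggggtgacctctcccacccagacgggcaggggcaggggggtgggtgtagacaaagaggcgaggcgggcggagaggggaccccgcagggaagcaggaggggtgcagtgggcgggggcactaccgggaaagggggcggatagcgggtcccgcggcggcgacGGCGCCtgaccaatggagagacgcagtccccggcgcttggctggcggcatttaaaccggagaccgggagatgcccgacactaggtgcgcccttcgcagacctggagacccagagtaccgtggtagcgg
Id2: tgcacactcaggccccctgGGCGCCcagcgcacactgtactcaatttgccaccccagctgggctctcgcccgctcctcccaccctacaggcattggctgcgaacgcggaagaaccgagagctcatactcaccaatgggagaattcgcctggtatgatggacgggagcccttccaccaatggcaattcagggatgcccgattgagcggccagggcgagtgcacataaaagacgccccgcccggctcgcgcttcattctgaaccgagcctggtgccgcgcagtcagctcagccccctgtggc
Smad9: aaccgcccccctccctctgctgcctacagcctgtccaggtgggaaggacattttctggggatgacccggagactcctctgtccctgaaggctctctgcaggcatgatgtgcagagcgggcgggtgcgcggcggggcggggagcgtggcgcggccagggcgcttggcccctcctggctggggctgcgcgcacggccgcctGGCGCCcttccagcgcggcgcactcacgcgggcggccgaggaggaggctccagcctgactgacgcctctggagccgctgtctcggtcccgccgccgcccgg
Counted from the start site, the match begins at −207 in Pax1, −78 in Grem1, −231 in Id2 and −51 in Smad9. GGCGCC was found in 18 of the 40 windows of genes lower in DIR (45%) and in 8 of the 24 of genes higher in DIR (33.3%), beside 21.9% of 9994 windows of all tested genes and 11.9% of 32851 windows of all genes. CCACCCA was found in 2 of 40 windows (5%) of the lower genes and 3 of 24 (12.5%) of the higher genes, beside 9.88% of the tested genes and 9.3% of all windows. Shares of called and tested genes use the first listed window of each gene, while the 32851 windows include every listed window of a gene. GGCGCC holds only G and C, and the GC of the windows was not compared between these sets. The Grem1 window also holds CCACCCA, left in lower case. Windows of the BMP targets Msx1, Msx2, Id3 and Smad6 hold no GGCGCC. Those of Ptch1, Hhip and Pax9 hold no CCACCCA. A match describes these letters only.

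Genes that BMP signalling turns on were often lower in DIR. Of 16 tested, 6 fell and none rose with treatment alone, beside 0.444% of all genes lower, and their median log2 fold change was −1.68, beside −0.01 over all genes tested. The 6 were Id2, Smad9, Msx2, Smad7, Tbx3 and Bambi, and each was called in all 8 fits that left out 1 library. Id2, which blocks bHLH transcription factors, had 13.3, 20.3, 30.3 and 17.2 CPM in DIR1 to DIR4, against 180, 173, 174 and 188 CPM in CTRL1 to CTRL4. The lowest CTRL library held more than 5 times the highest DIR library, and the CTRL libraries were close to one another. Its log2 fold change was −3.15 ± 0.23 (SE; edgeR adjusted p = 6.46e-04). Smad9, a receptor-activated Smad that is also a BMP target, had 0.794, 1.5, 0.769 and 1.04 CPM in DIR, against 15.0, 8.64, 11.0 and 16.8 CPM in CTRL, with no overlap. Its fold change of −3.63 ± 0.30 (edgeR adjusted p = 9.61e-04) stood beside 0.09 ± 0.11 for Smad1 (edgeR adjusted p = 0.734) and 0.12 ± 0.18 for Smad5 (edgeR adjusted p = 0.784), the other Smads of the pathway.

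Msx2, a homeobox factor, had 3.68, 5.69, 4.66 and 5.99 CPM in DIR and 20.2, 24.2, 20.7 and 31.2 CPM in CTRL, and fell by 2.27 ± 0.21 (edgeR adjusted p = 0.00161). Smad7, an inhibitory Smad that feeds back on the receptors, fell by 1.38 ± 0.16, Tbx3, a T-box repressor, by 1.77 ± 0.21, and Bambi, a decoy receptor, by 1.11 ± 0.13 on the log2 scale. The groups of these genes did not overlap. The share-adjusted fit added Id3, Smad6, Tbx2 and Bmper, which makes 10 of 16 lower, beside 0.839% of all genes in that fit. Id3, a second member of the Id family, had 3.10, 4.11, 23.7 and 11.7 CPM in DIR and 38.1, 150, 148 and 162 CPM in CTRL. The low CTRL library is CTRL1, and the 2 lowest DIR libraries are DIR1 and DIR2, so the level followed the split as well as the treatment. Its fold change was −3.57 ± 0.70 with treatment alone (edgeR adjusted p = 0.0606) and −2.63 in the share-adjusted fit (edgeR adjusted p = 0.00903).

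In Msx1 the split was wide. It had 0.0481, 0.123, 8.36 and 7.40 CPM in DIR and 0.400, 41.9, 40.4 and 59.97 CPM in CTRL, so that CTRL1 lay below DIR3 and DIR4 and the groups overlapped. Its log2 fold change was −3.20 ± 1.45 (edgeR adjusted p = 0.332), and the difference was −2.20 within the libraries of high share and −2.56 within those of low share. With the share as a factor of 2 classes Msx1 passed (edgeR adjusted p = 6.7e-05), and with the share as a number it did not (−0.52, edgeR adjusted p = 0.62). Msx1as, named for its antisense position to Msx1, had 1.25, 1.38, 1.20 and 1.07 CPM in DIR and 7.84, 8.12, 5.57 and 10.9 CPM in CTRL, with no trace of the split. It fell by 2.72 ± 0.23 (edgeR adjusted p = 0.00105), although the library kit marks no strand and reads of the 2 genes cannot be told apart where they overlap. Id1, the first of the Id genes, had 7.41, 10.3, 45.0 and 26.7 CPM in DIR and 29.2, 90.4, 84.9 and 105 CPM in CTRL, and did not pass (edgeR adjusted p = 0.217). In Hey1, a bHLH repressor that both Notch and BMP can raise, the fold change was 0.17 ± 0.13 (edgeR adjusted p = 0.54).

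Secreted regulators of BMP went both ways. Of 15 ligands and antagonists tested, Bmp3 and Bmp7 rose and Grem1 fell, with a median of −0.20. Grem1, a BMP antagonist at chr2:113746164-113758646, had 0.722, 0.369, 0.480 and 0.727 CPM in DIR, against 19.8, 17.5, 24.9 and 15.6 CPM in CTRL. All CTRL libraries lay at least 20 times above every DIR library. With −5.07 ± 0.28 (edgeR adjusted p = 1.29e-04), a 33.5-fold lower level, it was the largest decrease among the genes named here. Bmp3, a family member known to oppose BMP signalling, at chr5:98854415-98884396, had 48.5, 27.9, 22.8 and 27.6 CPM in DIR and 3.57, 2.40, 2.81 and 3.16 CPM in CTRL. DIR1 was the highest, the groups were far apart, and the gene rose by 3.41 ± 0.27 (edgeR adjusted p = 6.46e-04). Bmp7, a ligand, had 26.7, 26.3, 30.4 and 34.5 CPM in DIR and 11.5, 14.6, 17.8 and 14.2 CPM in CTRL, and rose by 1.02 ± 0.17 (edgeR adjusted p = 0.0269). This call was made in 2 of the 8 fits that left out 1 library, though the groups did not overlap.

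Nbl1, also called DAN, is another BMP antagonist, outside the list but among the 12 largest increases. It had 14.2, 10.7, 17.4 and 14.1 CPM in DIR and 2.72, 2.77, 2.85 and 2.85 CPM in CTRL, with nearly equal CTRL libraries, and rose by 2.33 ± 0.18 (edgeR adjusted p = 6.46e-04). Smoc1, a secreted matricellular protein known as a BMP antagonist from frog embryos, was more abundant than Grem1, Bmp3, Bmp7 and Nbl1 and was named after its values were seen. Its levels were 394, 371, 295 and 328 CPM in DIR and 158, 124, 145 and 128 CPM in CTRL, a rise of 1.32 ± 0.13 (edgeR adjusted p = 0.0023). Antagonists thus moved in opposite directions, Grem1 down and Bmp3, Nbl1 and Smoc1 up. Nog, which binds BMP ligands, had 0.217, 0.320, 1.1 and 0.554 CPM in DIR and 0.960, 1.5, 1.75 and 2.29 CPM in CTRL and did not pass (edgeR adjusted p = 0.197). In the share-adjusted fit Fst, known as an antagonist of activin and BMP, fell as well (−1.01, edgeR adjusted p = 0.0313), with 40.3, 27.0, 17.6 and 23.7 CPM in DIR and 51.6, 36.1, 47.6 and 43.1 CPM in CTRL. None of 13 receptor and Smad genes passed in either of these 2 fits, and their median was −0.02.

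Direct Hedgehog targets did not pass with treatment alone. Of 6 tested, 4 had a positive and 2 a negative fold change, with a median of 0.25. Ptch1, the receptor and the best known target, had 211, 278, 264 and 247 CPM in DIR and 168, 142, 191 and 211 CPM in CTRL. DIR1 and CTRL4 were nearly equal, so the groups touched without overlap, and its fold change was 0.49 ± 0.15 (edgeR adjusted p = 0.191). With the share as a factor of 2 classes, a fit that called 5.44% of all genes and 2.28% as higher, 2 of the 6 passed, Ptch1 (edgeR adjusted p = 0.0482) and Nkx6-1, a homeobox factor of the ventral neural tube. Gli1, a transcription factor used as a readout of the pathway, had 70.4, 78.4, 77.4 and 102 CPM in DIR and 64.4, 68.4, 94.1 and 115 CPM in CTRL, with full overlap and a fold change of −0.06 ± 0.20 (edgeR adjusted p = 0.911). Hhip, a decoy receptor for the ligand, had 32.1, 21.7, 8.36 and 16.6 CPM in DIR and 13.1, 7.17, 9.25 and 7.01 CPM in CTRL, and DIR3 lay within the CTRL range (1.11 ± 0.38, edgeR adjusted p = 0.236).

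With treatment alone, co-receptors and transducers of the Hedgehog ligand leaned the other way. Boc, a membrane co-receptor, had 17.1, 17.4, 19 and 22.0 CPM in DIR and 28.2, 31.6, 39.3 and 45.0 CPM in CTRL. The groups did not overlap, and Boc fell by 0.93 ± 0.17 (edgeR adjusted p = 0.0487), a call made in 1 of 8 fits without 1 library. Gas1, a second co-receptor, had 63.1, 59.995, 46.1 and 80.2 CPM in DIR and 84.8, 96.7, 165 and 128 CPM in CTRL (−0.93 ± 0.23, edgeR adjusted p = 0.141), again without overlap. Fold changes of all 8 tested ligand and transducer genes were negative with treatment alone, from −0.14 to −0.73, with a median of −0.44 and none past the threshold. In the share-adjusted fit their median was −0.22, again with no call, while the co-receptor median was −0.57 in both fits. With the share as a factor of 2 classes, Disp1 and Gli3 of these 8 were called lower, and Boc and Gas1 of 4 co-receptors. That fit called 3.16% of all genes as lower. With treatment alone the 8 include Smo, the target of SAG (−0.31 ± 0.19, edgeR adjusted p = 0.461), Gli3, which acts mainly as a repressor (−0.67 ± 0.25, edgeR adjusted p = 0.267), and Disp1, which releases the ligand (−0.73 ± 0.16, edgeR adjusted p = 0.0897).

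**Figure D3:**
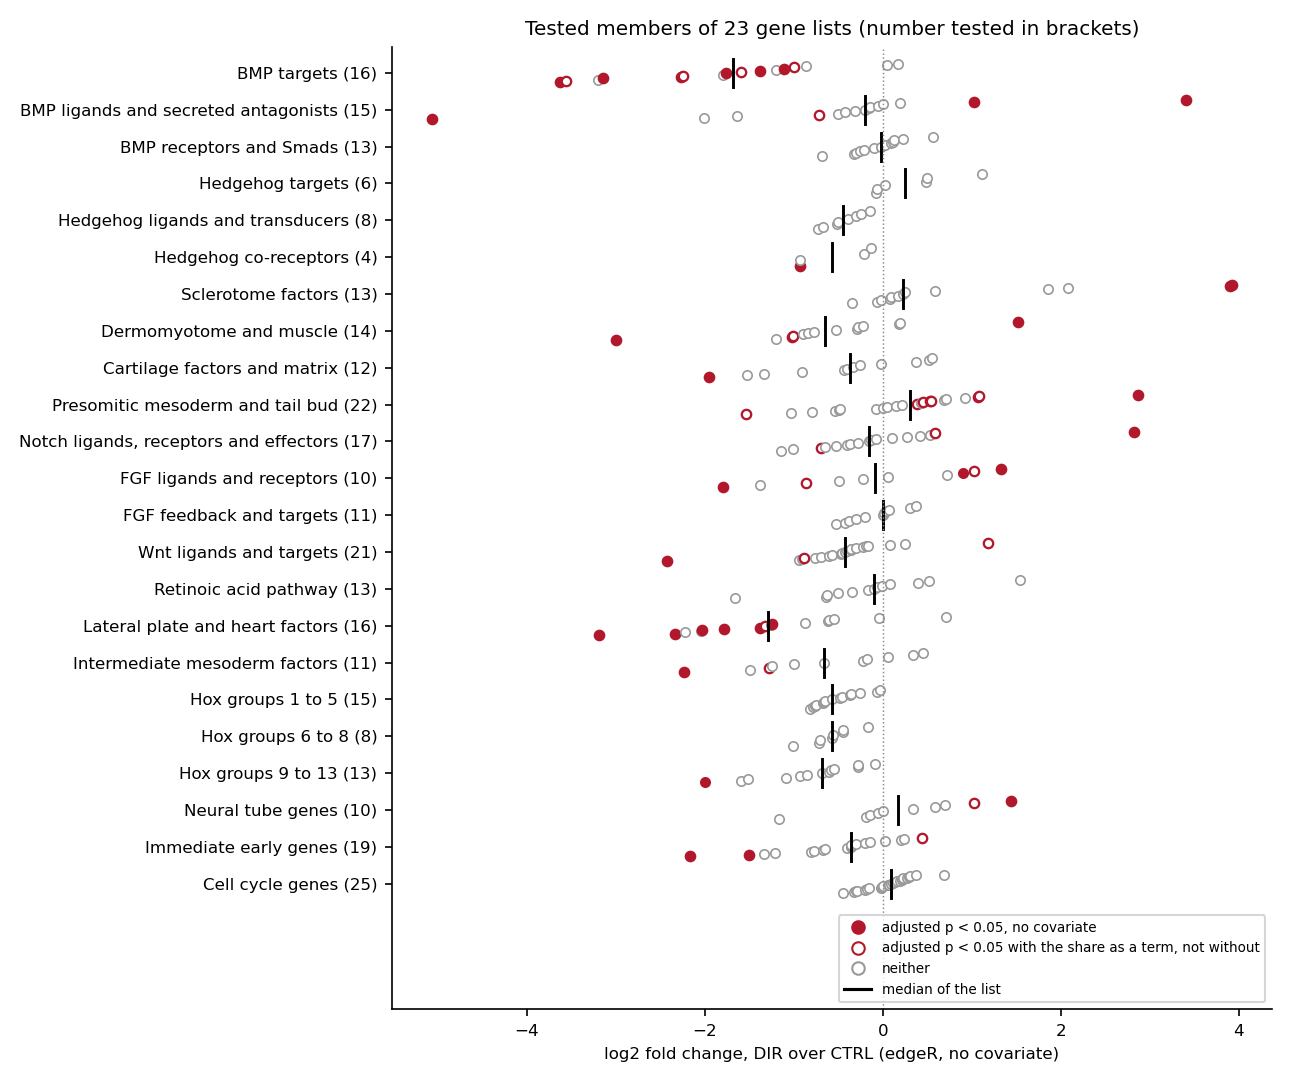
Log2 fold change, DIR over CTRL, of the tested members of 23 gene lists, with treatment alone in the model. Filled circles passed an adjusted p of 0.05, open red circles passed in the share-adjusted fit and not with treatment alone, grey circles passed in neither of these fits, and bars are list medians, which are −1.68 for BMP targets and −1.29 for lateral plate and heart factors.

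Of 13 sclerotome factors counted here, 2 rose and none fell, beside 0.303% of all genes higher and 0.444% lower. The 2 were Pax1 and its antisense neighbour, and the list median was 0.23. Pax1, a paired-domain regulator of early sclerotome at chr2:147361925-147393295, had 36.8, 17.9, 8.84 and 18.2 CPM in DIR and 1.97, 0.925, 1.45 and 1.02 CPM in CTRL. The DIR libraries differed by more than 4 times among themselves, with DIR1 high and DIR3 low, and all lay above every CTRL library. Pax1 rose by 3.93 ± 0.45 (edgeR adjusted p = 0.00529) and was called in all 8 fits without 1 library. AI646519, an antisense transcript whose exons share 183 bases with Pax1, had 3.01, 1.06, 1.1 and 0.934 CPM in DIR and 0.187, 0.0578, 0 and 0.124 CPM in CTRL (3.9 ± 0.65, edgeR adjusted p = 0.0308). Without strand, reads from the shared bases cannot be assigned to one of the pair. It passed in 3 of 8 fits without 1 library. Pax9, a close relative of Pax1, had 9.89, 4.51, 1.01 and 5.71 CPM in DIR and 1.17, 0.722, 2.98 and 0.279 CPM in CTRL (2.08 ± 0.74, edgeR adjusted p = 0.254). DIR3 lay below CTRL1 and CTRL3, and the low level of DIR3 recurs in other genes below.

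Other factors of the somite did not pass. Sox9, which sets up cartilage, had a fold change of −0.02 ± 0.17 (edgeR adjusted p = 0.963) and Foxc1, a forkhead factor of early paraxial mesoderm, of 0.09 ± 0.12 (edgeR adjusted p = 0.74). Meox1, a homeobox factor of the whole early somite, ran from 239 to 468 CPM in DIR and from 241 to 350 CPM in CTRL. Nkx3-2, a homeobox factor of later sclerotome, was too low to be tested, at 0.148 to 0.450 CPM in DIR and 0.0533 to 0.395 CPM in CTRL. Of 12 cartilage genes Col9a1, a chain of collagen IX, was the only one called. Its levels were 14.6, 14.9, 14.6 and 16.5 CPM in DIR, against 54.6, 51.3, 68.7 and 61.0 CPM in CTRL. The DIR libraries were nearly equal, and the gene fell by 1.96 ± 0.13 (edgeR adjusted p = 4.49e-04). Col2a1, the main collagen of cartilage, had 24.5, 24.5, 30.4 and 44.6 CPM in DIR and 31.7, 60.9, 67.3 and 72.3 CPM in CTRL (−0.91 ± 0.28, edgeR adjusted p = 0.209).

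Dermomyotome and muscle genes had 1 rise and 1 fall among 14 tested, with a median of −0.65. Myf5, the first of the myogenic factors to come on, had 0.144, 0.369, 0.240 and 0.242 CPM in DIR and 2.64, 1.18, 2.63 and 1.64 CPM in CTRL, and fell by 3.0 ± 0.39 (edgeR adjusted p = 0.00873). Its levels were low in both groups, and they did not overlap. Myod1 and Myog, the factors that follow it, averaged at most 0.0246 CPM in both groups and were not tested. Eya2, a coactivator of homeobox factors in muscle precursors, had 7.53, 6.5, 9.42 and 10.1 CPM in DIR and 2.32, 2.74, 3.55 and 3.13 CPM in CTRL, and rose by 1.52 ± 0.21 (edgeR adjusted p = 0.0117), in 6 of 8 fits without 1 library. Its relative Eya1 had 28.2, 27.7, 13.6 and 24.7 CPM in DIR and 54.9, 39.7, 49.98 and 46.0 CPM in CTRL, so these relatives were called in opposite directions in the share-adjusted fit (Eya1 −1.18, edgeR adjusted p = 0.030). Pax3, a marker of dermomyotome, had 23.2, 14.7, 10.0 and 20.8 CPM in DIR and 31.2, 26.6, 40.8 and 29.2 CPM in CTRL without passing (−0.89 ± 0.26, edgeR adjusted p = 0.185). Beside Eya1 and Myf5 the share-adjusted fit called Sim1, a bHLH-PAS factor, lower (edgeR adjusted p = 0.0352). Among 6 tendon genes, with no call with treatment alone, it called Scx, the defining factor of tendon, higher (1.60, edgeR adjusted p = 0.0335).

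Genes that define presomitic mesoderm were present in all 8 libraries, together with genes of formed somites such as Meox1, so the labelled tissue is there in both groups. Dll1, the Notch ligand that the lineage mark is named for, had 135, 181, 259 and 242 CPM in DIR and 107, 167, 158 and 167 CPM in CTRL. Within each class of libraries DIR lay above CTRL, by 0.55 (high share) and 0.61 (low share) on the log2 scale, while pooled over the classes the groups overlapped. Dll1 did not pass with treatment alone (0.45 ± 0.22, edgeR adjusted p = 0.363) and rose in the share-adjusted fit (0.77, edgeR adjusted p = 0.00793). Of 22 tail bud and presomitic genes 1 rose with treatment alone, beside 0.303% of all genes, and 7 rose and 1 fell in the share-adjusted fit, beside 0.684% and 0.839%. The 7 were T, which specifies mesoderm, Tbx6, which keeps paraxial fate, Dll1, Dll3, Lfng and Ripply2 of the segmentation clock and boundary, and Fgf4. With the trend over transcript GC removed in its place, 2 rose (Fgf4 and Lfng) and 1 fell, beside 0.849% and 0.949% of all genes.

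In Tbx6 the split was wider than the difference between the groups. It had 26.7, 34.5, 94.8 and 81.6 CPM in DIR and 18.9, 53, 49.6 and 60.3 CPM in CTRL, and its fold change was 0.38 ± 0.46 with treatment alone (edgeR adjusted p = 0.715) and 1.1 in the share-adjusted fit (edgeR adjusted p = 0.021). Dll3, a divergent Notch ligand, had 49.1, 53.2, 174 and 147 CPM in DIR and 29.9, 85.0, 91.9 and 83.0 CPM in CTRL. In both genes DIR1 and DIR2 lay above CTRL1 but below CTRL2 to CTRL4. Fgf4, a fibroblast growth factor made in the tail bud, at chr7:144847367-144865243, needed no such term: it had 8.57, 11.7, 12.8 and 15.3 CPM in DIR and 1.55, 2.25, 1.18 and 1.58 CPM in CTRL, and rose by 2.87 ± 0.25 (edgeR adjusted p = 0.00113). Evx1, a homeobox factor of the tail bud, went the other way, with 6.21, 9.63, 13.9 and 14.4 CPM in DIR and 21.9, 30.0, 33.1 and 42.6 CPM in CTRL (−1.53 ± 0.29, edgeR adjusted p = 0.057, and −1.14 in the share-adjusted fit, edgeR adjusted p = 0.0045).

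Notch pathway genes had 1 call among 17. Heyl, a bHLH repressor that Notch turns on, at chr4:123233556-123249875, had 38.5, 23.3, 16.2 and 23.7 CPM in DIR and 3.95, 2.69, 4.08 and 3.69 CPM in CTRL. The lowest DIR library was about 4 times the highest CTRL library, and Heyl rose by 2.82 ± 0.28 (edgeR adjusted p = 0.0021). Of its relatives none passed with treatment alone: Hey1 is given above, Hey2 had −0.70 ± 0.16 (edgeR adjusted p = 0.109) and Hes1 had −0.15 ± 0.19 (edgeR adjusted p = 0.724). Notch1, a receptor, had 131, 158, 201 and 237 CPM in DIR and 77.9, 118, 147 and 141 CPM in CTRL, and did not pass with treatment alone but rose in the share-adjusted fit (0.95, edgeR adjusted p = 0.0024). That fit also called Hey2 lower (−0.78, edgeR adjusted p = 0.0498), which makes 2 higher and 1 lower of 17, and the median of the list was 0.25 in it, against −0.15 with treatment alone.

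Of 10 further FGF ligand and receptor genes, the ligand genes Fgf15 and Fgf18 rose and the receptor gene Fgfr3 fell. Fgf15 had 24.3, 25.3, 24.9 and 28.8 CPM in DIR and 9.98, 12.5, 10.5 and 7.97 CPM in CTRL, a rise of 1.33 ± 0.16 (edgeR adjusted p = 0.00573). Fgf18 had 47.1, 32.4, 31.9 and 37.2 CPM in DIR and 18.6, 18.7, 24.4 and 17.9 CPM in CTRL, and was just past the threshold (0.90 ± 0.17, edgeR adjusted p = 0.0498, and 0.053 in the share-adjusted fit), a call lost whenever 1 library was left out. Fgfr3 had 5.34, 5.91, 3.80 and 5.36 CPM in DIR and 14.2, 14.4, 19.9 and 22.7 CPM in CTRL and fell by 1.80 ± 0.21 (edgeR adjusted p = 0.00552). Fgfr1, another receptor gene, had −0.23 ± 0.13 (edgeR adjusted p = 0.438). In the share-adjusted fit Fgf3, a ligand gene, rose (1.7, edgeR adjusted p = 0.0361) and Fgfr2, a receptor gene, fell (−1.04, edgeR adjusted p = 0.0306), which with Fgf15 and Fgfr3 makes 2 in each direction. None of 11 feedback and response genes passed with treatment alone or in the share-adjusted fit, and their median was 0.00. Spry2, an inhibitor induced by FGF, had 38.3, 39.6, 35.9 and 38.6 CPM in DIR and 39.7, 39.96, 38.5 and 34.6 CPM in CTRL, and Dusp6, a phosphatase that limits ERK, had 186 to 212 CPM in DIR and 179 to 203 CPM in CTRL.

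Of 21 Wnt genes 1 fell with treatment alone, with a median of −0.42, and 1 rose and 2 fell in the share-adjusted fit, where Wnt6, a ligand, rose (2.04, edgeR adjusted p = 0.0306) and Fzd4, a receptor, fell (−1.11, edgeR adjusted p = 0.0440) beside Wnt4. With the GC trend removed neither Wnt6 nor Fzd4 was called, and 3 members fell, Sfrp2, Wnt4 and Wnt5a, beside 0.949% of all genes. Wnt4, a ligand of the kidney and gonad, had 1.20, 1.23, 1.20 and 2.32 CPM in DIR and 5.33, 8.35, 7.85 and 10.6 CPM in CTRL, and fell by 2.43 ± 0.30 (edgeR adjusted p = 0.00628). Wnt7a, a ligand outside the list, had 1.03, 0.739, 0.961 and 1.21 CPM in DIR and 0.133, 0.318, 0.132 and 0.0310 CPM in CTRL (2.63 ± 0.49, edgeR adjusted p = 0.0487), low in both groups and called in 1 of 8 fits without 1 library; it was named after its values were seen. Frzb, a secreted Wnt antagonist also outside the list and chosen in the same way, fell by 1.03 ± 0.16, with 34.3, 38.3, 49.8 and 39.4 CPM in DIR and 79.0, 68.2, 99.4 and 82.7 CPM in CTRL (edgeR adjusted p = 0.0211, in 3 of 8 fits without 1 library). Axin2, a general readout of Wnt signals, had −0.42 ± 0.19 (edgeR adjusted p = 0.337). None of 13 retinoic acid genes passed with treatment alone. Aldh1a2, the enzyme that makes retinoic acid in somites, had 213, 106, 71.4 and 106 CPM in DIR and 43.8, 36.2, 60.2 and 30.9 CPM in CTRL, with no overlap (1.54 ± 0.33, edgeR adjusted p = 0.0836). It was called higher with the GC trend removed, beside 0.849% of all genes, and with the share as a factor of 2 classes, beside 2.28%. The latter fit also called Cyp26b1 and Rxra lower, beside 3.16%, and the share-adjusted fit called no member.

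Lateral plate and heart factors were the second group with many members lower: 6 of 16 fell and none rose, beside 0.444% of all genes lower, with a median of −1.29. The 6 were the GATA factors Gata4, Gata5 and Gata6, the bHLH factors Hand1 and Hand2, and Isl1, a homeobox factor of heart progenitors and hindlimb. Hand1 had 6.5, 9.65, 8.89 and 10.7 CPM in DIR and 28.8, 38.6, 43.0 and 70.5 CPM in CTRL, with no overlap, and fell by 2.34 ± 0.28 (edgeR adjusted p = 0.00573). Gata5 had 0.289, 0.615, 0.480 and 0.727 CPM in DIR and 5.2, 4.02, 4.60 and 5.40 CPM in CTRL, and fell by 3.19 ± 0.29 (edgeR adjusted p = 0.00121). Gata4 fell by 2.04 ± 0.34, Gata6 by 1.24 ± 0.19, Isl1 by 1.79 ± 0.30 and Hand2 by 1.38 ± 0.24, with edgeR adjusted p-values of 0.0211 to 0.0383. Hand1 and Gata5 were called in all 8 fits without 1 library, Gata6 in 3, Gata4 and Isl1 in 2 and Hand2 in 1. Summed over the list, levels were 169 to 252 CPM in DIR and 402 to 542 CPM in CTRL. Several of these genes are also known to respond to BMP, and whether fewer lateral plate cells or less RNA per cell lay behind the lower levels cannot be told apart.

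Tbx4, a factor of hindlimb mesoderm, had 11.1, 8.30, 0.721 and 13.3 CPM in DIR and 30.5, 35.0, 40.9 and 32.6 CPM in CTRL. DIR3 was again the low library, and the gene did not pass (−2.04 ± 0.60, edgeR adjusted p = 0.186). The share-adjusted fit called the same 6 lateral plate and heart factors and Tbx20. Of 11 intermediate mesoderm genes Wt1, a zinc finger factor of kidney and body wall, fell by 2.24 ± 0.39 (edgeR adjusted p = 0.0386, in 2 of 8 fits without 1 library), with 3.97, 2.98, 0.769 and 3.04 CPM in DIR and 14.4, 11.3, 15.3 and 10.5 CPM in CTRL. Gata3, of the nephric duct, had 4.77, 9.43, 10.3 and 10.3 CPM in DIR and 21.1, 16.7, 20.7 and 25.7 CPM in CTRL, and Pax8 had 1.37, 2.24, 3.46 and 3.04 CPM in DIR and 9.84, 6.65, 5.57 and 6.20 CPM in CTRL; neither passed with treatment alone (edgeR adjusted p = 0.0612 and 0.0684). In the share-adjusted fit Gata3 fell (−1.11, edgeR adjusted p = 0.0440) and Pax8 missed the threshold (edgeR adjusted p = 0.0504). With the GC trend removed both fell (edgeR adjusted p = 0.0300 and 0.0339).

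All 36 tested Hox genes, which set position along the body axis, had negative fold changes, with a median of −0.60, and 31 of them were negative in the share-adjusted fit, with a median of −0.45. Their transcripts have a median GC of 53.4%, and with the GC trend removed 34 were negative, with a median of −0.56. A single one, Hoxa13, passed with treatment alone: this most posterior HoxA gene had 1.64, 1.26, 0.577 and 1.94 CPM in DIR and 3.33, 5.63, 6.62 and 6.33 CPM in CTRL, and fell by 2.00 ± 0.36 (edgeR adjusted p = 0.0419, and 0.0577 in the share-adjusted fit), in 2 of 8 fits without 1 library. Hoxa5, a cervical and thoracic gene, had 28.3, 33.3, 30.1 and 34.8 CPM in DIR and 46.4, 41.7, 53.6 and 58.8 CPM in CTRL, with −0.66 ± 0.14 (edgeR adjusted p = 0.0766). The groups of 13 of the 36 did not overlap, all lower in DIR, beside 4.65% of all genes. With the GC trend removed Hoxa5, Hoxc5, Hoxd1 and Hoxa13 were called lower, beside 0.949% of all genes. With the share as a factor of 2 classes, 5 of 15 Hox genes numbered 1 to 5 were lower, beside 3.16% of all genes. So were 5 of 8 numbered 6 to 8 and 2 of 13 numbered 9 to 13. The share-adjusted fit called none.

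Markers of other tissues had few calls. Levels of the 14 neural tube genes listed summed to 106 to 129 CPM in DIR and 87.3 to 109 CPM in CTRL. Of the 10 tested, Olig2, a factor of motor neuron progenitors that Hedgehog raises, was the only one called with treatment alone. It had 2.43, 1.77, 1.97 and 2.80 CPM in DIR and 0.640, 0.809, 1.01 and 0.868 CPM in CTRL, and rose by 1.44 ± 0.25 (edgeR adjusted p = 0.0337), in 1 of 8 fits without 1 library. Sox2, a factor of neural and tail bud progenitors, had 12.9, 16.7, 27.2 and 18.1 CPM in DIR and 7.95, 9.74, 9.82 and 9.18 CPM in CTRL and passed in the share-adjusted fit (1.22, edgeR adjusted p = 0.016). Neurog1, a neuronal bHLH factor, averaged 0.0293 CPM in DIR and 0.0404 CPM in CTRL. Endothelial genes summed to 273 to 560 CPM in DIR and 336 to 449 CPM in CTRL and blood genes to 22.5 to 67.2 CPM in DIR and 14.6 to 23.1 CPM in CTRL, with no call among 14 and 6 tested with treatment alone. In the share-adjusted fit Etv2, an early endothelial factor, rose (1.43, edgeR adjusted p = 0.0415), with 7.0, 12.5, 31.9 and 21.0 CPM in DIR and 4.83, 16.2, 9.65 and 12.1 CPM in CTRL. Blood genes had the higher median, 0.98, with 5 of 6 positive. Of the globin genes, Hba-a1 and Hba-a2 were at 0 in all 8 libraries. Reads without a unique alignment are not in the gene counts, so reads shared by similar genes would be missed. A count of 0 here need not mean that the RNA is absent. Notochord and epithelial genes had no call among 4 and 11 tested in either fit; all 4 notochord genes had positive fold changes, with a median of 0.70.

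Apob, an apolipoprotein of yolk sac and gut endoderm, rose by 1.76 ± 0.33 (edgeR adjusted p = 0.0487, and 0.0567 in the share-adjusted fit), with 2.31, 2.68, 3.65 and 1.73 CPM in DIR and 0.960, 0.491, 0.570 and 0.992 CPM in CTRL, and lost its call whenever 1 library was left out. Afp, Ttr and Apoa1, other genes of yolk sac endoderm, were too low to be tested but stood out in DIR3, at 7.06, 2.35 and 2.74 CPM, beside at most 0.588, 0.173 and 0.311 CPM in the other DIR libraries and at most 0.289, 0.376 and 0.620 CPM in CTRL. Their part in the difference in Apob was not tested. Of 6 tested neural crest genes Snai2, a zinc finger repressor that mesoderm uses too, fell by 1.81 ± 0.22, with 7.08, 9.16, 5.48 and 5.78 CPM in DIR and 27.9, 19.2, 21.0 and 28.7 CPM in CTRL (edgeR adjusted p = 0.00552). Ngfr, a neurotrophin receptor of the crest, rose in the share-adjusted fit (0.95, edgeR adjusted p = 0.0257). Sox10 and Foxd3, which define the crest, averaged at most 0.151 CPM in both groups.

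Immediate early genes, which respond within minutes to growth factors and handling, had 2 calls among 19 with treatment alone, both lower, and a median of −0.36. In the share-adjusted fit both fell, Btg2, an inhibitor of proliferation, rose (0.62, edgeR adjusted p = 0.0306), and the median was 0.09. Fos had 4.26, 7.63, 9.22 and 9.17 CPM in DIR and 19.3, 18.2, 22.4 and 25.6 CPM in CTRL and fell by 1.5 ± 0.25 (edgeR adjusted p = 0.0289), in 3 of 8 fits without 1 library. Fosb had 1.08, 2.26, 3.07 and 2.49 CPM in DIR and 4.99, 8.03, 12.6 and 14.1 CPM in CTRL (−2.17 ± 0.39, edgeR adjusted p = 0.0454), in 1 of 8. Unc5b, a netrin receptor, fell by 1.4 ± 0.24 (edgeR adjusted p = 0.0357, in 1 of 8), with 27.7, 38.4, 45.8 and 51.8 CPM in DIR and 73.0, 101, 113 and 143 CPM in CTRL, and was the only call among 19 guidance genes with treatment alone. Of 15 stress genes Hspa1b, a heat shock protein, fell in the share-adjusted fit (−1.62, edgeR adjusted p = 0.00878) and no member was called with treatment alone. Reads that Hspa1b shares with its relative Hspa1a would not be counted. With treatment alone and in the share-adjusted fit there was no call among 25 genes of the cell cycle, 19 of hypoxia and glycolysis, 19 of cholesterol synthesis, 16 of mesenchymal transition, 25 collagen and matrix genes, 13 p53 targets and 13 genes of the TGF-beta pathway. With treatment alone the medians of these lists lay between −0.27 for collagens and matrix and 0.09 for the cell cycle.

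The remaining genes of the largest changes belong to no list. Higher in DIR were Cobl, an actin nucleator (2.04 ± 0.21), Fam101a, a partner of filamin (1.95 ± 0.23), Slc8a3, a sodium-calcium exchanger (1.91 ± 0.15), Rab37, a GTPase of secretion (1.79 ± 0.21), Mbp, the myelin basic protein (1.64 ± 0.21), and Pnliprp2, a lipase-related protein (1.48 ± 0.23). Lower were Adh1, an alcohol dehydrogenase (−2.23 ± 0.19), and Dok4, an adaptor of tyrosine kinases (−1.82 ± 0.23). Slc8a3 was among the steadiest, with 10.0, 11.0, 10.5 and 8.68 CPM in DIR and 2.59, 2.63, 2.85 and 2.64 CPM in CTRL (edgeR adjusted p = 6.46e-04). Pnliprp2 was called in 3 of the 8 fits without 1 library and the other 7 of these genes in all 8. Below a mean of 5 CPM, and so named after their values were seen, Gpr30, a G-protein-coupled oestrogen receptor, rose by 3.23 ± 0.35 with 3.54, 3.15, 5.91 and 4.5 CPM in DIR and 0.347, 0.260, 0.745 and 0.496 CPM in CTRL (edgeR adjusted p = 0.00399). Tlx1, a homeobox factor of the spleen primordium, fell by 3.98 ± 0.52 (edgeR adjusted p = 0.00873), with 0.0481, 0.0492, 0 and 0.138 CPM in DIR and 0.747, 1.01, 1.36 and 0.961 CPM in CTRL.

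Of the other called genes, 6 were chosen after their values were seen. Fxyd6, a regulator of the sodium pump, had 244, 197, 205 and 205 CPM in DIR and 102, 103, 115 and 93.6 CPM in CTRL, and rose by 1.04 ± 0.11 (edgeR adjusted p = 0.00382). Clu, a secreted chaperone, had 54.5, 56.6, 75.1 and 58.7 CPM in DIR and 28.6, 30.3, 24.5 and 33.1 CPM in CTRL, and rose by 1.07 ± 0.15 (edgeR adjusted p = 0.0117). Amot, a partner of the Hippo pathway at cell junctions, had 74.6, 149, 109 and 80.3 CPM in DIR and 412, 220, 267 and 354 CPM in CTRL. The DIR2 and CTRL2 levels of Amot came closest, without overlap, and it fell by 1.60 ± 0.26 (edgeR adjusted p = 0.0289, in 3 of 8 fits without 1 library). Dlx3, a homeobox factor of ectoderm and bone, was low in both groups, with 0.193, 0.197, 0.144 and 0.104 CPM in DIR and 1.01, 0.982, 1.27 and 1.36 CPM in CTRL, and fell by 2.79 ± 0.31 (edgeR adjusted p = 0.00399). Gad1, which makes the transmitter GABA, rose by 1.09 ± 0.16 (edgeR adjusted p = 0.0157), and Nr2f1, a nuclear receptor, fell by 1.26 ± 0.21 (edgeR adjusted p = 0.0281), a call that was lost with the GC trend removed (edgeR adjusted p = 0.35).

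Genes called in the share-adjusted fit and not with treatment alone were named by size of change in that fit. The 8 highest were Sv2b and Syt13, proteins of secretory vesicles, Trp53i11, Igfbpl1, Sox2, Ociad2, Vmac and Mmp17, a membrane-anchored metalloproteinase, with log2 fold changes of 0.70 to 2.39. Trp53i11 had 39.9, 53.2, 108 and 74.2 CPM in DIR and 20.6, 32.4, 30.6 and 31.6 CPM in CTRL, and its fold change was 1.25 ± 0.29 with treatment alone (edgeR adjusted p = 0.11) and 1.61 in the share-adjusted fit (edgeR adjusted p = 0.0043). The 8 lowest were Id3, Zim1 and Peg3, both imprinted zinc finger genes, Tbx20, a heart factor, Unc5c, a netrin receptor, Abi3bp and Smoc2 of the matrix, and Cd36, a fatty acid receptor, at −1.19 to −2.63. Peg3 had 559, 761, 355 and 562 CPM in DIR and 1336, 989.9, 1134 and 1329.8 CPM in CTRL, with no overlap between the groups (−1.1 ± 0.22 with treatment alone, edgeR adjusted p = 0.0678).

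**Figure D4:**
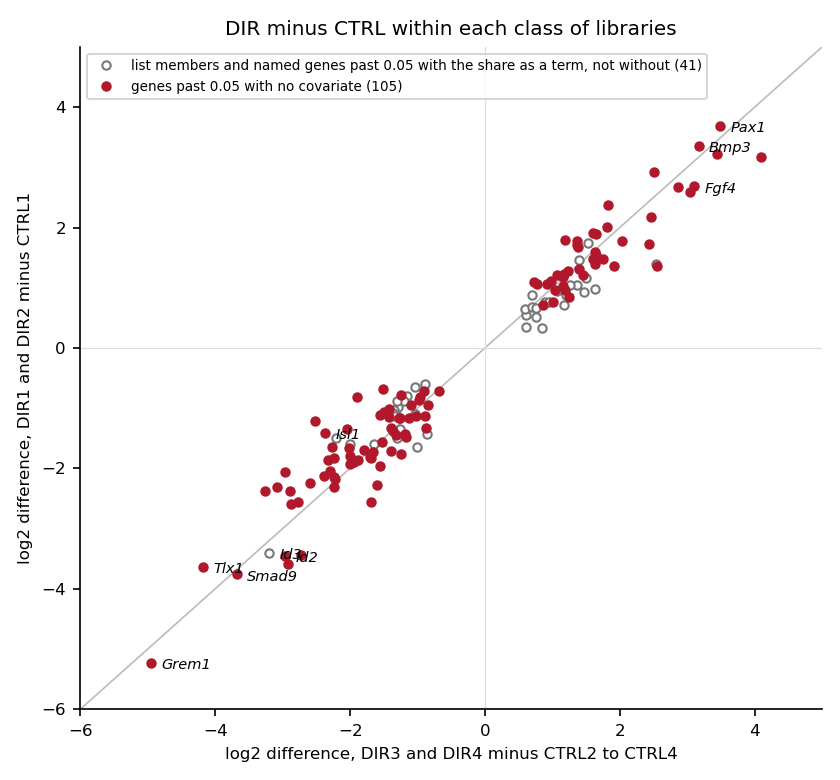
Log2 difference DIR minus CTRL in libraries with over 20% non-unique alignments (DIR1 and DIR2 minus CTRL1, vertical) against that in the other libraries (DIR3 and DIR4 minus CTRL2 to CTRL4, horizontal). Red, 105 genes called with treatment alone, and open circles, 41 list members and named genes called in the share-adjusted fit and not with treatment alone. All points have the same sign on both axes. The same libraries called these genes, and those named by size of change also had to have groups without overlap, so this sign is no separate support.

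Uncultured cells sorted from the same kind of embryo give a scale for these levels. On a common scaling of these 6 groups, Pax1 averaged 20.1 ± 11.6 CPM in DIR (SD, n = 4) and 1.32 ± 0.470 CPM in CTRL (n = 4), beside 2.26 ± 2.79 CPM in SOMA (n = 3), presomitic mesoderm with the newest somite, and 61.4 ± 33.0 CPM in SOMB (n = 4), which holds somites 2 to 5. The DIR mean thus lay between these 2 uncultured levels. Fgf4 averaged 11.9 CPM in DIR and 1.62 CPM in CTRL, beside 0.275 CPM in SOMA and at most 0.0159 CPM in the older somites, so both cultured groups were above all uncultured ones. Id2 averaged 19.99 CPM in DIR and 176 CPM in CTRL, beside 94.8 to 154 CPM in the uncultured groups, and Grem1 0.567 CPM in DIR and 19.2 CPM in CTRL, beside 6.35 to 18.4 CPM. For both genes the DIR libraries lay below all uncultured ones, while the CTRL mean was above the uncultured means with overlapping libraries. Cultured and uncultured levels were not tested against each other.

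**Figure D5:**
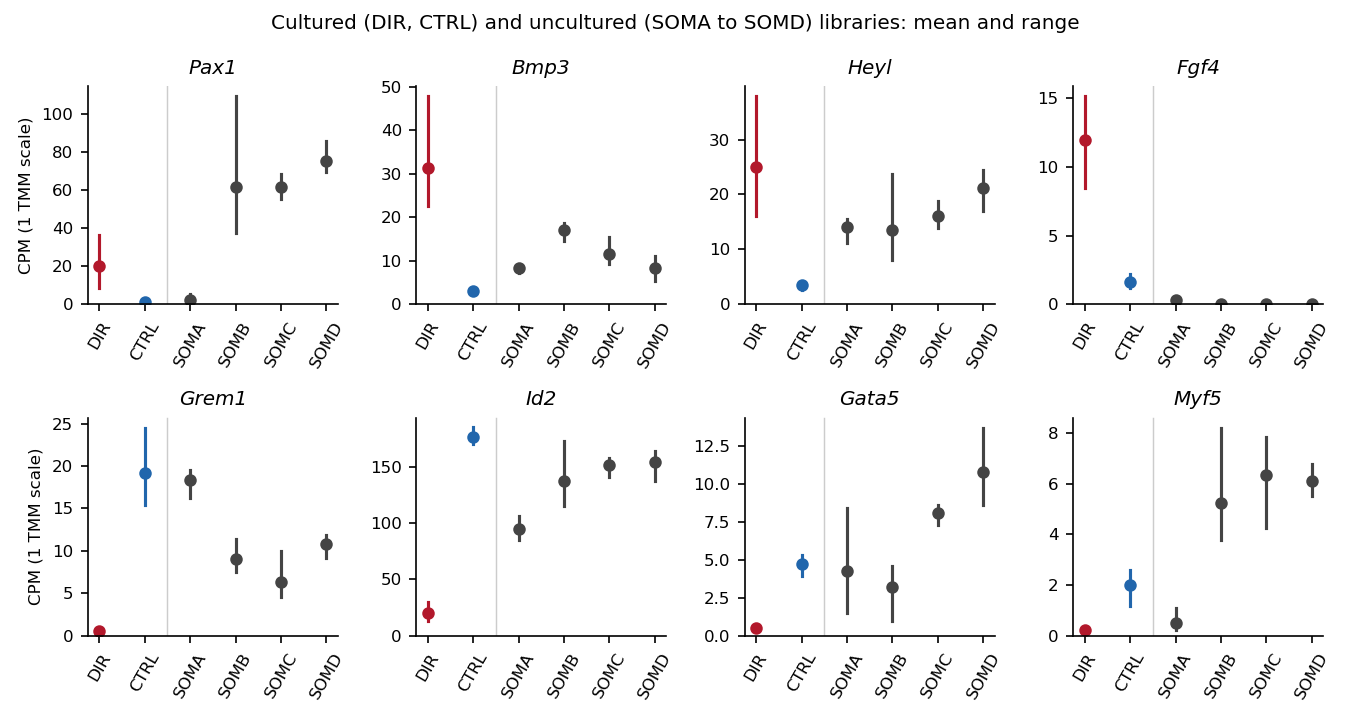
Mean (dot) and range over libraries (line) of 8 genes on 1 TMM scale in DIR and CTRL (n = 4 each) and in uncultured Dll1-lineage cells, 3 libraries of SOMA and 4 each of SOMB, SOMC and SOMD, which run from presomitic mesoderm to the oldest somites. Pax1 in DIR (20.1 CPM) lies between SOMA (2.26 CPM) and SOMB (61.4 CPM), and Fgf4 in DIR (11.9 CPM) lies above all others.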

How the data were processed

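RNA from 4 DIR and 4 CTRL libraries was extracted with Trizol and made into libraries with a TruSeq RNA v2 kit, which keeps no strand, and 11 rounds of PCR, per the labels' protocols. The files the authors deposited hold whole-number read counts for each gene. The submitters' processing notes name TopHat2 2.0.9 and HTSeq 0.6, beside Cufflinks and DESeq2 1.10, and the mm10 build. Annotation and strand setting: not given in the sources used here. The 5 summary lines of each file were left out of the counts; the share of non-unique alignments comes from one of them, may count alignments and not reads, and is a share of all lines summed.

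After filterByExpr with a minimum count of 10 and a minimum total of 15, and TMM scaling, DIR and CTRL alone were compared by edgeR 4.0.16 under R 4.3.3, with quasi-likelihood F tests, a prior count of 0.125 and Benjamini-Hochberg adjustment over all 14190 genes at 0.05. Values are log2 fold changes, DIR over CTRL, ± SE, and TMM-scaled CPM. The SE was derived from the test, as the absolute log2 fold change divided by the square root of the F statistic. Alternatives were RLE size factors, library totals, no filter, DESeq2 1.42.0, the replicate number as a block, the share as a term or factor, both together, libraries of low share only, all 29 libraries and each library left out. Removal of the trend over transcript GC, by a loess fit of span 0.5 in each library, was chosen after seeing the data. The scripts were tested on simulated data. Places and GC came from GENCODE M21 (GRCm38), which held 1 gene for 22829 of 23337 symbols, 1914 of them by an older symbol.

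The comparison and the 40 gene lists were chosen with earlier results of these data known. Named genes are 12 in each direction, those of largest change among the genes called, with a mean of at least 5 CPM and no overlap; Xist, Tsix, Y-linked genes and unnamed loci were not considered. To these come, by the same measures, 8 higher and 8 lower genes called in the share-adjusted fit and not with treatment alone, and list members that were called, are abundant or define a list. Some genes, 1 of them called, are not reported here. Replicate numbers were not taken to pair the samples, since no pairing is stated. Figures were drawn with matplotlib 3.10.9.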

Additional observations from a re-analysis of the deposited data

Results flagged for a closer look

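Of 244 groups of 4 libraries, 1 for each of 122 named genes in DIR and CTRL, 18 held a library whose gap to the others exceeded Dixon's 95% critical share of the range of the group; chance flags about 1 in 20 groups. Of these, 8 were CTRL1, the CTRL library with a high share of non-unique alignments, and 4 were DIR1, the library with the highest share.

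In CTRL1, genes below the other CTRL libraries were Dll1 at 107 CPM (others 158 to 167), Dll3 at 29.9 CPM (83.0 to 91.9), Id3 at 38.1 CPM (148 to 162) and Trp53i11 at 20.6 CPM (30.6 to 32.4). Above the others were Unc5c at 145 CPM (82.5 to 89.8), Plxna4, a semaphorin receptor, at 20.7 CPM (16.0 to 16.7), Tbx20 at 13.1 CPM (5.57 to 6.82) and Cobl at 2.67 CPM (1.75 to 1.91). In CTRL2 Bambi was at 82.3 CPM (67.6 to 68.5), and in CTRL3 Fgf18 was at 24.4 CPM (17.9 to 18.7).

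In DIR1, AI646519 at 3.01 CPM (others 0.934 to 1.1) and Fxyd6 at 244 CPM (197 to 205) were high, and Gata3 at 4.77 CPM (9.43 to 10.3) and Socs2, a suppressor of cytokine signalling, at 36.2 CPM (45.9 to 47.3) were low. Adh1 stood at 2.14 CPM in DIR2 (1.61 to 1.68), Syt13 at 16.0 CPM in DIR3 (7.65 to 8.96), and in DIR4 Wnt4 stood at 2.32 CPM (1.20 to 1.23) and Col9a1 at 16.5 CPM (14.6 to 14.9).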

How the results depend on the processing

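With RLE size factors 42 genes were higher and 62 lower, with library totals 36 and 56, and with no filter 44 and 64. DESeq2 called 201 and 295, the share as a term 97 and 119, the share as a factor 324 and 448, the 5 libraries of low share alone 105 and 149, and all 29 libraries in 1 fit 801 and 681. The replicate block gave 61 higher and 195 lower. The numbers share no stated source, so the samples are not taken as paired. Deviations of libraries of the same number correlate unevenly (0.756 for number 1, −0.578 for number 2, 0.279 for 3 and 0.459 for 4). These correlations also follow the share of non-unique alignments, with 0.737 for DIR2 and CTRL1, so they cannot decide whether the numbers pair. The block together with the share as a term called 0 in both directions in edgeR, with 4341 genes at an unadjusted p under 0.05; few degrees of freedom remain in that fit. With the GC trend removed 119 were higher and 133 lower, with the block added 66 and 74, and with the share as a term added 97 and 123. Leaving out 1 library gave 16 to 47 higher and 24 to 61 lower. List members called in the share-adjusted fit and not with treatment alone differed with the GC trend removed. Called there too were Id3, Smad6, Tbx2, Eya1, Evx1, Lfng, Hey2, Notch1, Tbx20, Gata3, Sox2 and Ngfr. Not called there were Bmper, Fst, Sim1, Scx, Dll1, Dll3, Ripply2, T, Tbx6, Fgf3, Fgfr2, Fzd4, Wnt6, Etv2, Unc5c, Btg2 and Hspa1b.

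Of 122 named genes, 4 with the share as a term, 6 with the block and 61 with both lost a call. Fold changes turned sign in 5 genes, none of them called with treatment alone. Gli1 became 0.18 with the share as a term, 0.045 with it as a factor, 0.01 without DIR1 and 0.12 without CTRL4 (−0.18 without DIR4 at the other end), 0.31 with the GC trend removed, 0.30 with that and the block and 0.13 with that and the share. Junb, an immediate early gene, became 0.47 with the share, 1.29 with share and block, and 0.27 with GC and share; with share and block Cyp26a1, which degrades retinoic acid, became 0.25, Msx1 0.17 and Ptch1 −0.11. The cause was not tested. With 4 libraries a group, smaller changes may be missed.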

Other observations

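The values of DIR3 lay outside those of the other DIR libraries in 3 genes chosen after their values were seen. Postn, a matrix protein of mature mesenchyme, had 103, 77.0, 9.13 and 50.9 CPM in DIR and 71.4, 51.6, 48.9 and 34.6 CPM in CTRL. Twist1, a bHLH factor of mesenchyme, had 93.4, 79.4, 40.7 and 88.1 CPM in DIR and 112, 126, 148 and 128 CPM in CTRL. Cdx2, a homeobox factor of the tail bud, had 20.4, 45.3, 116 and 65.4 CPM in DIR and 40.6, 69.7, 59.1 and 76.3 CPM in CTRL. DIR3 was thus the lowest of the DIR libraries in Postn and Twist1 and the highest in Cdx2, and it also held the lowest Pax1 and Pax9 and the highest Afp among them. In Fgf4 and Evx1, which are also tail bud genes, DIR3 lay below DIR4.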
